A study of Arabidopsis thaliana with 22 samples.

Results

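Gibberellin is a plant hormone that promotes the initiation of trichomes, the hairs of the leaf epidermis. It is perceived by GID1 receptors in the nucleus, and the hormone-bound receptor takes hold of DELLA proteins, repressors of growth and of trichome initiation, so that an SCF ubiquitin ligase can mark them for degradation. RGA is one of these DELLA repressors, and SPY is a glycosyltransferase that acts on DELLA proteins and holds gibberellin responses back. Transcripts of 5 genes of this pathway were followed here, the receptor genes *GID1A* (AT3G05120), *GID1B* (AT3G63010) and *GID1C* (AT5G27320), the DELLA gene *RGA* (AT2G01570) and *SPY* (AT3G11540). They were chosen by gene symbol. Each had 1 probe set, and all 5 were among the 16349 probe sets tested, of 22746 on the array other than controls. The platform annotation named 4 of them, and *RGA* took its name from the probe set identifiers that the study lists for known trichome genes, of which nothing else was used.

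RNA came from green tissues of *Arabidopsis thaliana* seedlings of 2 lines, pGL1::GL1-GR in the *gl1* mutant and pGL3::GL3-GR in the *gl3 egl3* mutant. The R2R3-MYB protein GL1 and the bHLH protein GL3 start trichome formation, and a steroid-binding domain of the glucocorticoid receptor (GR) keeps either fusion inactive until dexamethasone (DEX) is present. Each line received DEX or ethanol alone (Mock) and was collected after 4 h or 24 h, which gave 8 groups with 3 Affymetrix ATH1 arrays each, except for the DEX and Mock groups of GL3-GR at 24 h, with 2 arrays each. Per the study's methods, seedlings were pooled for each RNA extraction, and the RNA came from biologically independent materials. The labels give only a sample number, so the p-values measure the spread between these samples. Each fusion was driven by its own gene's promoter and replaced a factor missing from the mutant plant. In the *gl3 egl3* mutant GL3-GR replaced GL3 alone, and EGL3, a related bHLH protein, stayed missing. RNA was taken from all green tissue, so that a change in the cells that make the fusion is diluted by the others. A change in the number of such cells cannot be told apart from a change in RNA per cell. DEX without a GR fusion was not analysed here, so an effect of the steroid itself cannot be told apart from that of the fusion.

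The values were deposited as GCRMA expression values on the log2 scale, on which a difference of 1 is 2-fold. The arrays of 1 line at 1 time form a set, and the 4 sets had different lowest values and medians, which ranged from 3.62 to 6.06 over the 22 arrays, so levels were not tested between sets. To place a gene within its array, its percentile is used, the share of the probe sets of the same array that lay lower. Arrays correlated at 0.937 to 0.998 within a set and at 0.815 to 0.962 between sets. *RCA*, the activase of Rubisco and a marker of green tissue, had group means of 11.04 to 13.62, while the root hair genes *EXPA7* and *EXPA18* lay near the floor with group means of 2.11 to 2.34. Of 12 tissue markers listed, these 3 had a named probe set. The probe set of *GL1*, with group means of 2.12 to 2.51, lay near the floor as well and was not tested, and *GL3* had no named probe set, so neither transgene could be checked.

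None of the 5 transcripts passed the test for a change under DEX in either line at either time. Of all probe sets tested, 0.0245% passed in GL1-GR at 4 h, 0.893% in GL3-GR at 4 h and 0% in both lines at 24 h. Over the 20 comparisons of the 5 transcripts the differences between DEX and Mock ran from -0.11 to 0.51 on the log2 scale, or from 0.929- to 1.42-fold. Of these, 16 lay above 0 and 4 below, while 40% to 53% of all probe sets lay above 0 in each comparison. No 95% confidence interval reached a 2-fold change in either direction, the widest bounds being 0.574- and 2.00-fold (limma, all 22 arrays). With the arrays of each comparison fitted alone, 4 of the 20 intervals did reach a 2-fold change, with bounds from -1.43 to 1.25 on the log2 scale. For those 4 the limit thus rests on the fit of all arrays. The SE of *GID1C* was larger alone in both sets of 24 h. That of *GID1B* in GL3-GR at 24 h was smaller alone (0.215 against 0.250), as was that of *SPY* in GL1-GR at 24 h (0.196 against 0.231). Their intervals were wider alone because fewer arrays estimate the spread. The root mean square SD within groups was 0.548 in GL3-GR at 4 h and 0.188 to 0.285 in the other sets. Intervals from all arrays may therefore be too narrow in GL3-GR at 4 h, and too wide in other sets for genes with a smaller spread there. The SE of *RGA* in GL1-GR was 0.22 at both times from all arrays. With each comparison alone it was 0.10 at 4 h and 0.082 at 24 h. In GL3-GR at 4 h the interval of *RGA* was -0.44 to 0.49 from all arrays and -0.87 to 0.92 alone. For *GID1C* they were -0.32 to 0.84 and -0.27 to 0.79. *SPY* had the largest difference of the 20, in GL1-GR at 24 h, and 3 transcripts of GL3-GR at 24 h (*GID1A*, *GID1B* and *RGA*) had all DEX arrays above all Mock arrays. With 2 arrays against 2 this held for 12.6% of the probe sets tested, and 31.7% did not overlap in either direction.

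**Figure D1:**
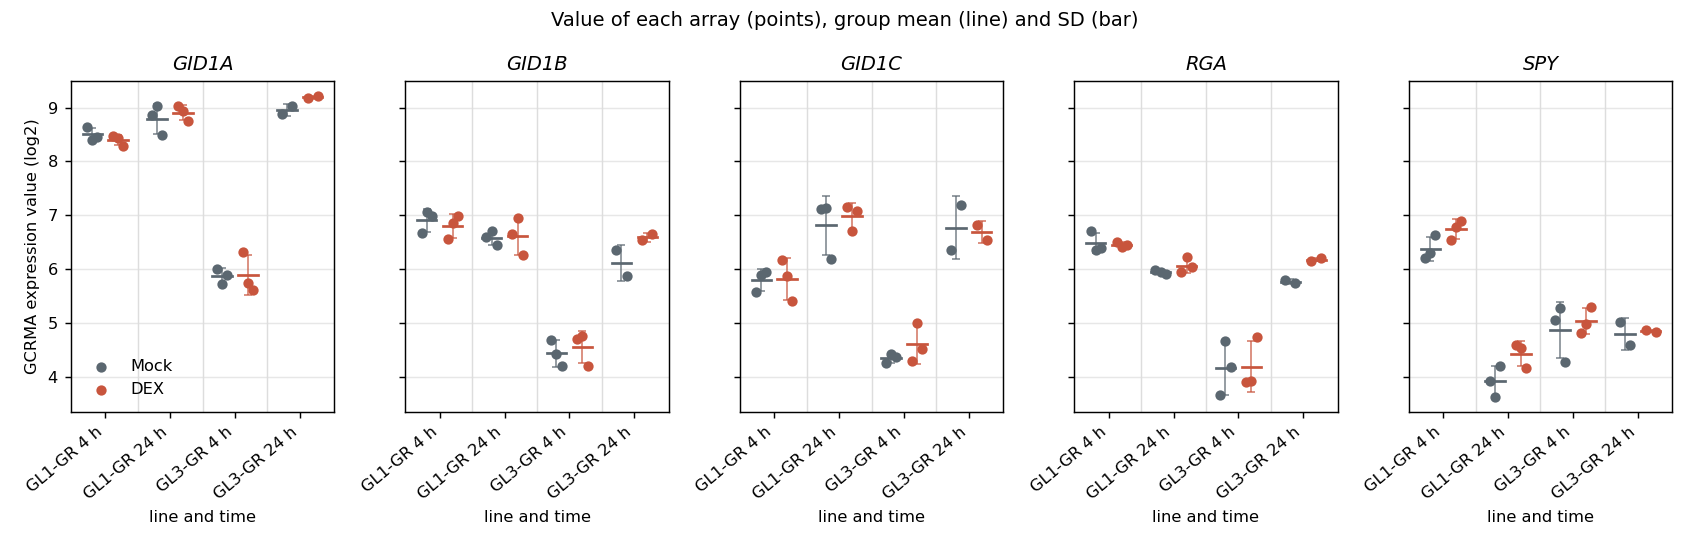
GCRMA expression value (log2) of each array (points) for the 5 genes, by line and time, with Mock in grey and DEX in red; lines are group means and bars are SD (n = 3, or 2 for GL3-GR at 24 h). Mock and DEX arrays overlap in most sets, and for *RGA* in GL3-GR at 24 h the DEX arrays (6.16 and 6.20) lie above the Mock arrays (5.80 and 5.74); heights are not comparable between panels or between sets.

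The receptor transcripts were examined first. *GID1A* lay high in each array, between the percentiles 71.9 and 80.3. In GL1-GR at 4 h its values were 8.64, 8.41 and 8.46 in the Mock arrays and 8.47, 8.43 and 8.29 in the DEX arrays. At 24 h the Mock arrays of that line had 8.86, 9.02 and 8.48 and the DEX arrays 9.02, 8.95 and 8.75. The groups overlapped at both times, with differences of -0.10 (SE 0.17) and 0.11 (SE 0.17). GL3-GR seedlings of 4 h had 6.01, 5.73 and 5.89 under Mock and 6.31, 5.74 and 5.61 under DEX, a mean of 5.87 ± 0.14 against 5.89 ± 0.37 (SD, n = 3), with overlap again. In GL3-GR at 24 h the Mock arrays had 8.88 and 9.04 and the DEX arrays 9.17 and 9.21. Both DEX arrays thus lay above both Mock arrays, by 0.23 on average (SE 0.21), which did not pass the test (limma, Benjamini-Hochberg adjusted p = 1.00).

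*GID1B*, which binds gibberellin more tightly than the other receptors, had its largest difference in the same set. The GL3-GR Mock arrays of 24 h were at 6.36 and 5.88 and the DEX arrays at 6.53 and 6.64, without overlap. The difference was 0.47 (SE 0.25, 95% interval -0.06 to 1.00), or 1.39-fold, and it did not pass the test (limma, Benjamini-Hochberg adjusted p = 1.00), while 3.93% of the probe sets tested had a larger one in size. In the other sets the *GID1B* arrays of Mock and DEX overlapped. GL1-GR seedlings of 4 h had 6.67, 7.06 and 6.99 under Mock and 6.56, 6.86 and 6.98 under DEX, a difference of -0.11 (SE 0.20). At 24 h the means of that line were 6.58 ± 0.14 and 6.62 ± 0.35 (SD, n = 3), and in GL3-GR at 4 h they were 4.44 ± 0.25 and 4.55 ± 0.30.

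The arrays of *GID1C* overlapped between Mock and DEX in all 4 sets, and its spread was wide outside GL3-GR at 4 h. The SD pooled over the Mock and DEX groups was 0.258 in that set. It was 0.308 in GL1-GR at 4 h, 0.424 in GL1-GR at 24 h and 0.443 in GL3-GR at 24 h. In GL1-GR at 4 h the means were 5.80 ± 0.20 and 5.82 ± 0.39 (SD, n = 3). The Mock arrays of GL1-GR at 24 h had 7.12, 7.14 and 6.19, so that 1 of 3 lay well below the others, and the DEX arrays had 7.16, 6.70 and 7.08. The mean difference of 0.16 in that set (SE 0.27) became -0.15 without the low Mock array. GL3-GR seedlings of 4 h had 4.26, 4.42 and 4.36 under Mock and 4.30, 5.0 and 4.51 under DEX, a difference of 0.26 (SE 0.27). At 24 h the 2 Mock arrays of GL3-GR, at 6.35 and 7.19, enclosed both DEX arrays, at 6.83 and 6.54, and the difference of -0.09 (SE 0.34) had the widest interval of all, from -0.80 to 0.62.

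*RGA*, the DELLA gene, showed differences of 0.12 or less in 3 of the 4 sets and a larger one in GL3-GR at 24 h, while its protein, the form that gibberellin acts on, is not seen by an array. In GL1-GR at 4 h the Mock arrays had 6.70, 6.36 and 6.39 and the DEX arrays 6.50, 6.40 and 6.45. At 24 h the same line had 5.99, 5.95 and 5.91 under Mock and 5.94, 6.23 and 6.03 under DEX. These groups overlapped, with differences of -0.04 and 0.12 (SE 0.22 for both). The GL3-GR arrays of 4 h were spread over more than 1 unit, with 3.66, 4.66 and 4.18 under Mock and 3.90, 3.93 and 4.74 under DEX and means of 4.17 ± 0.50 and 4.19 ± 0.48 (SD, n = 3). *RGA* lay as little as 1.40 above the lowest value of its array there, nearer to the floor than in the other sets.

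In GL3-GR at 24 h *RGA* was at 5.80 and 5.74 in the Mock arrays and at 6.16 and 6.20 in the DEX arrays. The difference of 0.41, or 1.33-fold, was large against the spread within these groups, with a residual SD of 0.038. The fit of all arrays, which takes a moderated SD of 0.27 for this gene from the 8 groups together, gave an SE of 0.27 and a 95% interval of -0.16 to 0.98 (limma, Benjamini-Hochberg adjusted p = 1.00). With the 4 arrays fitted alone the SE was 0.035 and the interval 0.29 to 0.53, and limma gave an adjusted p = 0.666. The unadjusted p was then under 0.05, as for 5.95% of the probe sets, and 0.343% of them had a smaller one. The residual SD of *RGA* was 0.137 in GL1-GR at 4 h, 0.108 in GL1-GR at 24 h and 0.489 in GL3-GR at 4 h, and thus largest in the last of these sets. Without the 6 GL3-GR arrays of 4 h no member was called either, and the smallest adjusted p of the 5 in GL3-GR at 24 h was that of *RGA*, at 0.640 (limma).

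*SPY* was the one transcript with a difference above 0 in all 4 comparisons, as were 5.6% of the probe sets tested. In GL1-GR at 24 h the Mock arrays had 3.93, 3.63 and 4.21 and the DEX arrays 4.58, 4.54 and 4.17, so that 2 of 3 DEX arrays lay above each Mock array and the other lay just below the highest. The means were 3.92 ± 0.29 and 4.43 ± 0.23 (SD, n = 3), a difference of 0.51 (SE 0.23, 95% interval 0.02 to 1.00) or 1.42-fold. In the fit of all arrays it was the only one of the 20 with an unadjusted p under 0.05, a level reached by 1.17% of the probe sets in that comparison. It did not pass after Benjamini-Hochberg adjustment (limma, adjusted p = 1.00). With the arrays of that set fitted alone the interval was -0.006 to 1.02 and held 0 (limma, unadjusted p = 0.0519). After quantile normalization the difference was 0.36 (limma, unadjusted p = 0.235). *SPY* lay as little as 1.66 above the lowest value of its array there, nearer to the floor than in any array of the other sets.

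The GL1-GR arrays of 4 h had *SPY* at 6.21, 6.30 and 6.63 under Mock and at 6.54, 6.78 and 6.90 under DEX. The difference was 0.36 (SE 0.23, 95% interval -0.13 to 0.85), or 1.28-fold, with the lowest DEX array below the highest Mock array. GL3-GR seedlings of 4 h had 5.05, 5.28 and 4.28 under Mock and 4.82, 4.98 and 5.30 under DEX, and the difference of 0.16 (SE 0.23) became -0.13 without the lowest Mock array. In GL3-GR at 24 h the 2 DEX arrays, at 4.86 and 4.84, lay between the Mock arrays, at 5.01 and 4.58, with a difference of 0.05 (SE 0.28). The mean of the 4 responses of *SPY*, a contrast added after these values had been seen, was 0.27 (SE 0.12, 95% interval 0.01 to 0.53). Its unadjusted p was under 0.05, as for 4.34% of all probe sets, and it was not among the 0.0122% that passed after adjustment (limma, Benjamini-Hochberg adjusted p = 0.999). The same mean was 0.06 for *GID1A*, 0.13 for *GID1B*, 0.09 for *GID1C* and 0.13 for *RGA*.

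**Figure D2:**
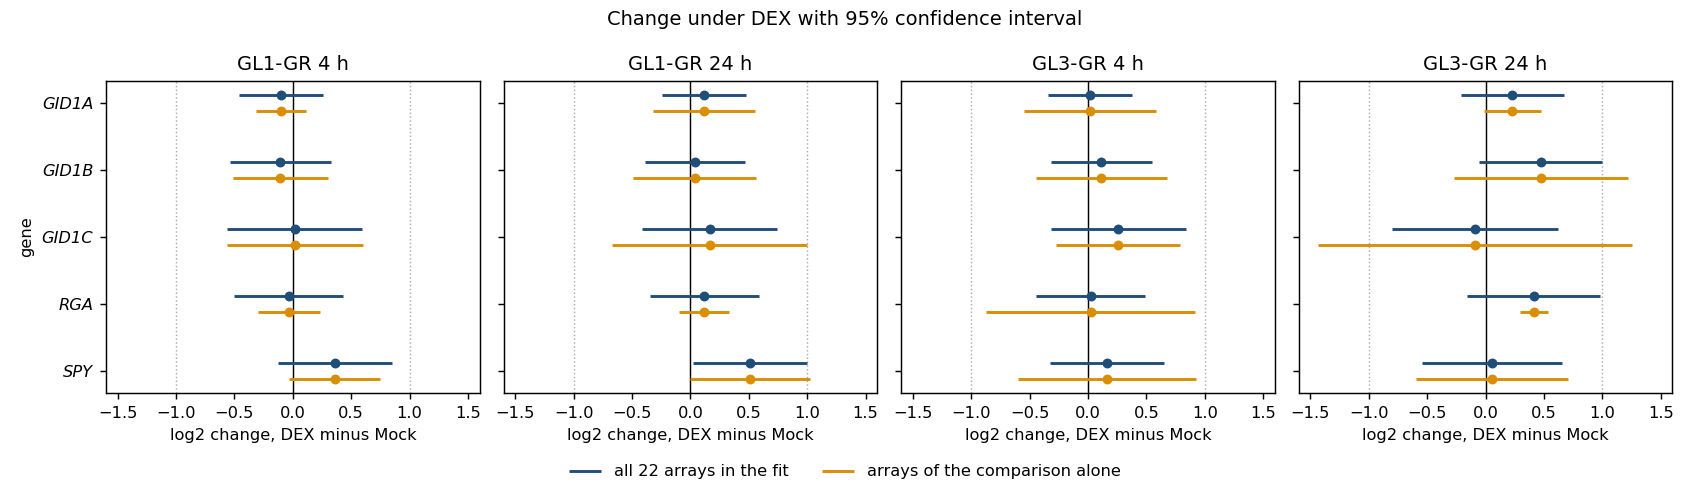
Difference between DEX and Mock (log2, points) with its 95% confidence interval for each gene and comparison, from the fit of all 22 arrays (blue) and from the arrays of the comparison alone (orange); dotted lines mark 2-fold changes. All blue intervals lie within the dotted lines, and only that of *SPY* in GL1-GR at 24 h (0.02 to 1.00) leaves out 0. The orange interval of *SPY* in that set is -0.006 to 1.02 and holds 0. The interval of *RGA* in GL3-GR at 24 h shrinks from -0.16 to 0.98 in blue to 0.29 to 0.53 in orange.

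The counts of the 5 genes were set against those of all probe sets. At an adjusted p under 0.05 (limma, Benjamini-Hochberg), 0 of 5 were called in GL1-GR at 4 h against 0.0245% of the probe sets tested, and 0 of 5 in GL3-GR at 4 h against 0.893%. The last share rests on 146 probe sets, a count that ran from 65 to 1755 with 1 array left out. In both lines at 24 h 0% of all probe sets were called, while 1.17% (GL1-GR) and 1.36% (GL3-GR) had an unadjusted p under 0.05. At that level *SPY* was the only gene of the 5 in GL1-GR at 24 h, and there was none in the other 3 comparisons, where the share of all probe sets was 16.7% (GL3-GR, 4 h), 2.78% (GL1-GR, 4 h) and, as above, 1.36% (GL3-GR, 24 h). All DEX arrays lay above all Mock arrays for 3 of the 5 in GL3-GR at 24 h, as for 12.6% of the probe sets there, and for 0 of 5 in the others, where that share was 8.19% (GL1-GR after 4 h), 2.75% (GL1-GR after 24 h) and 2.7% (GL3-GR after 4 h). The number above 0 was 2 of 5 in GL1-GR at 4 h, 5 of 5 in GL1-GR at 24 h, 5 of 5 in GL3-GR at 4 h and 4 of 5 in GL3-GR at 24 h, with 53%, 47.6%, 41.2% and 40% of all probe sets above 0 in the same order. The median difference of the 5 genes was -0.04, 0.12, 0.12 and 0.23 in that order, and that of all probe sets lay between -0.06 and 0.002.

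The responses of the lines and of the times were also compared with each other. None of the 20 differences between 2 responses passed the test, with a smallest adjusted p of 0.859 (limma, Benjamini-Hochberg). Of all probe sets, 0.0306% passed for the difference between the lines at 4 h, 0% for that at 24 h and 0.00612% for the difference between the times in either line. None of the 20 had an unadjusted p under 0.05, which 9.2% and 0.765% of all probe sets had for the lines at 4 h and 24 h, and 1.57% and 5.39% for the times in GL1-GR and GL3-GR. The response of *SPY* at 24 h was lower in GL3-GR than in GL1-GR by a difference of -0.46 (SE 0.37, 95% interval -1.23 to 0.32), the largest of the 20 in size, and ran from -0.67 to -0.24 with 1 array left out. That of *GID1B* at 24 h was higher in GL3-GR by 0.43 (SE 0.32, interval -0.25 to 1.11), with 0.19 without the lower GL3-GR Mock array and 0.67 without the higher one. For *RGA* in GL3-GR the response of 24 h exceeded that of 4 h by 0.39 (SE 0.35, interval -0.35 to 1.13). This value rested on the GL3-GR arrays of 4 h, being 0.14 without Mock sample 2, 0.64 without Mock sample 1, 0.24 and 0.26 without DEX samples 1 and 2 and 0.66 without DEX sample 3. With array weights it was 0.83 and passed the test (limma, Benjamini-Hochberg adjusted p = 0.0471), in a fit that called 909 of all probe sets. These intervals are wide, and several of them reach beyond a 2-fold difference between lines or times. The bounds of the 20 ran from -1.27 to 1.13 on the log2 scale.

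Position within the array differed between sets of arrays for some of the genes. *GID1C* lay between the percentiles 46.2 and 51.0 in the GL1-GR arrays of 4 h and between 57.2 and 63.7 in those of 24 h, with no overlap. The GL3-GR arrays of 4 h, at 56.2 to 66.7, also lay above the GL1-GR arrays of that time for *GID1C*. *SPY* lay lower at 24 h in both lines, at 46.8 to 50.2 after 51.2 to 58.4 in GL1-GR and at 49.5 to 51.1 after 57.0 to 71.2 in GL3-GR. Percentiles of *RGA* were between 52.8 and 55.7 in GL1-GR at 4 h and just higher, up to 57.6, at 24 h. *GID1A* in GL3-GR lay at 71.9 to 76.9 at 4 h and at 77.1 to 80.3 at 24 h. These 6 separations were among 20 comparisons of sets, and the other 14 overlapped.

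Such separation was common on these arrays. The percentiles of the times did not overlap for 70.8% of the probe sets in GL1-GR and for 49.6% in GL3-GR, and those of the lines for 51.2% at 4 h and 52.4% at 24 h. At 24 h none of the 5 genes was separated between the lines, and *GID1B* overlapped in all of these comparisons, between 54.3 and 64.0 over all arrays. Time of collection and any separate normalization cannot be told apart in the differences between times, nor line and normalization in that between lines.

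**Figure D3:**
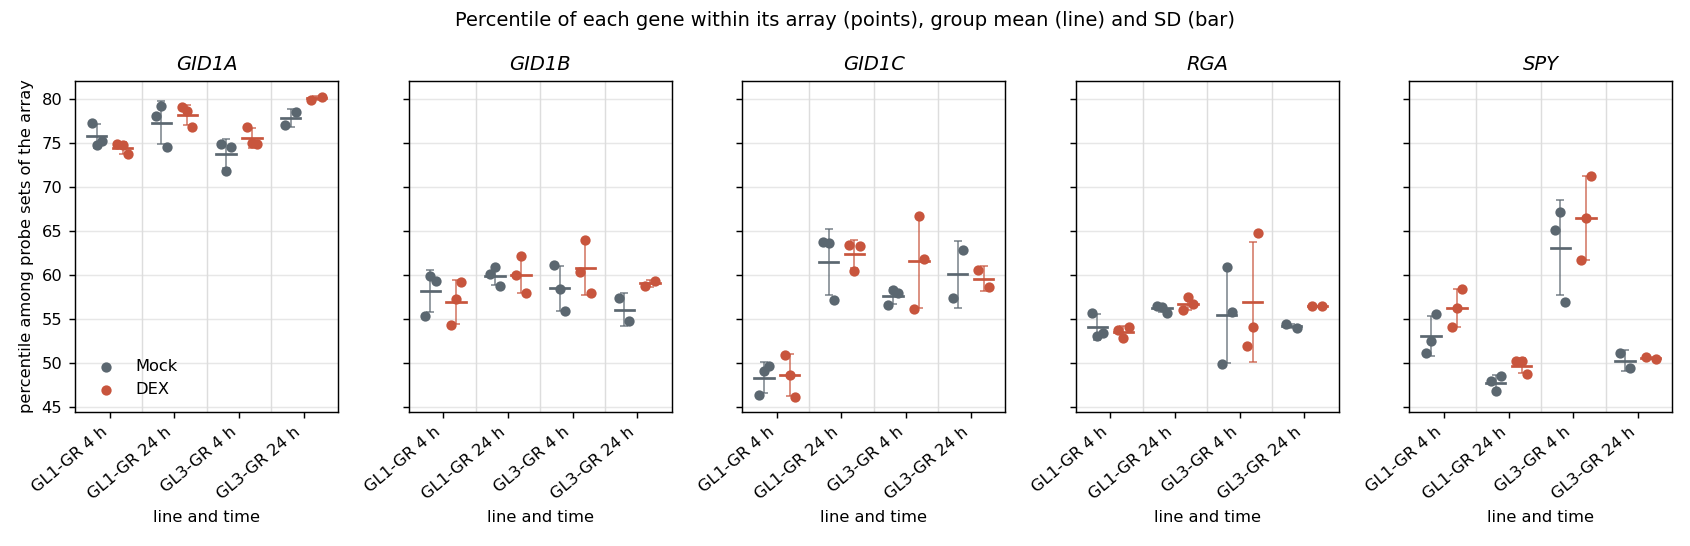
Percentile of each gene among the probe sets of the same array (points), by line and time, with Mock in grey and DEX in red; lines are group means and bars are SD. *GID1A* stays between 71.9 and 80.3, *GID1C* lies lowest in GL1-GR at 4 h (46.2 to 51.0), and *SPY* lies higher at 4 h than at 24 h in both lines.

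Other genes of the pathway could be followed only in part. The list held 39 genes of gibberellin synthesis, breakdown and signalling and of gibberellin-dependent trichome initiation. Of these, 4 had a named probe set and 2 were tested, *SLY1*, the F-box protein of the ubiquitin ligase that marks DELLA proteins, and *SEC*, the glycosyltransferase related to SPY. Neither passed the test in any of the 4 comparisons (0 of 2 in each, against 0% to 0.893% of the probe sets tested). *SEC* in GL1-GR at 4 h had 8.80, 8.56 and 8.62 under Mock and 8.96, 8.87 and 9.37 under DEX, a difference of 0.40 (SE 0.25) without overlap, as for 8.19% of the probe sets with all DEX arrays higher. In GL3-GR at 4 h it had 6.38, 6.33 and 6.21 under Mock and 5.40, 6.41 and 5.42 under DEX, so that 2 of 3 DEX arrays lay below all Mock arrays, with a mean difference of -0.56 (SE 0.25; limma, Benjamini-Hochberg adjusted p = 0.264). At 24 h its differences were -0.05 (GL1-GR) and 0.02 (GL3-GR). The difference between its responses of 4 h was -0.97 (SE 0.35) with an adjusted p = 0.443 (limma, Benjamini-Hochberg). The differences of *SLY1* were 0.12 and -0.11 in GL1-GR at 4 h and 24 h and -0.32 and -0.21 in GL3-GR (SE 0.18 to 0.22). In the last of these both DEX arrays lay below both Mock arrays, as for 19.1% of the probe sets. The F-box gene *SNE* and the zinc finger gene *GIS*, which acts in gibberellin-dependent trichome initiation, had group means of 2.11 to 2.28 and 2.15 to 2.50, near the floor, and were not tested.

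Correlations among the 5 genes from array to array ran in both directions. After centring and scaling within each set, their 10 pairwise Pearson correlations over the 22 arrays ran from -0.37 (*GID1A* with *SPY*) to 0.30 (*GID1B* with *SPY*), and 5 of the 10 lay below 0. With the means of the DEX and Mock groups removed as well, the same pairs gave -0.57 and 0.46 as the extremes, and 7 of the 10 lay below 0. Among 9134 named probe sets, the ones most like *GID1A* in this measure were AT2G42780 (r = 0.91), AT1G23120 (r = 0.84) and AT1G54460 (r = 0.83). Those most like *SPY* were AT5G18590 (r = 0.83), AT2G47960 (r = 0.74) and AT5G35560 (r = 0.73). For *GID1B* they were AT5G26280 (r = 0.77), *UPB1* (r = 0.75) and AT2G24580 (r = 0.74), for *GID1C* AT2G15960 (r = 0.78), AT4G24730 (r = 0.74) and AT5G32450 (r = 0.74), and for *RGA* AT2G13290 (r = 0.73), *AME3* (r = 0.73) and AT3G32270 (r = 0.68). With the group means removed, r was 0.42 for *AME3* and 0.59 to 0.93 for the other 14. These are the highest of many values over 22 arrays that share their groups and normalization, and they are given as a description.

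Leaving out each array in turn showed which differences kept their sign. The difference of *SPY* stayed above 0 in GL1-GR at 4 h (0.27 to 0.48) and at 24 h (0.36 to 0.65). That of *RGA* stayed above 0 at 24 h in GL1-GR (0.04 to 0.18) and in GL3-GR (0.38 to 0.44). In GL3-GR at 24 h the differences of *GID1A* (0.15 to 0.31) and *GID1B* (0.23 to 0.71) kept their sign as well. That of *GID1B* was 0.71 without the higher Mock array and 0.23 without the lower one. For *GID1A*, *GID1B* and *RGA* in that set the DEX and Mock arrays did not overlap, so leaving out 1 array could not change the sign. The other differences with a kept sign were those of *GID1A* in GL1-GR at 4 h (-0.15 to -0.03) and of *GID1C* in GL3-GR at 4 h (0.06 to 0.41).

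**Figure D4:**
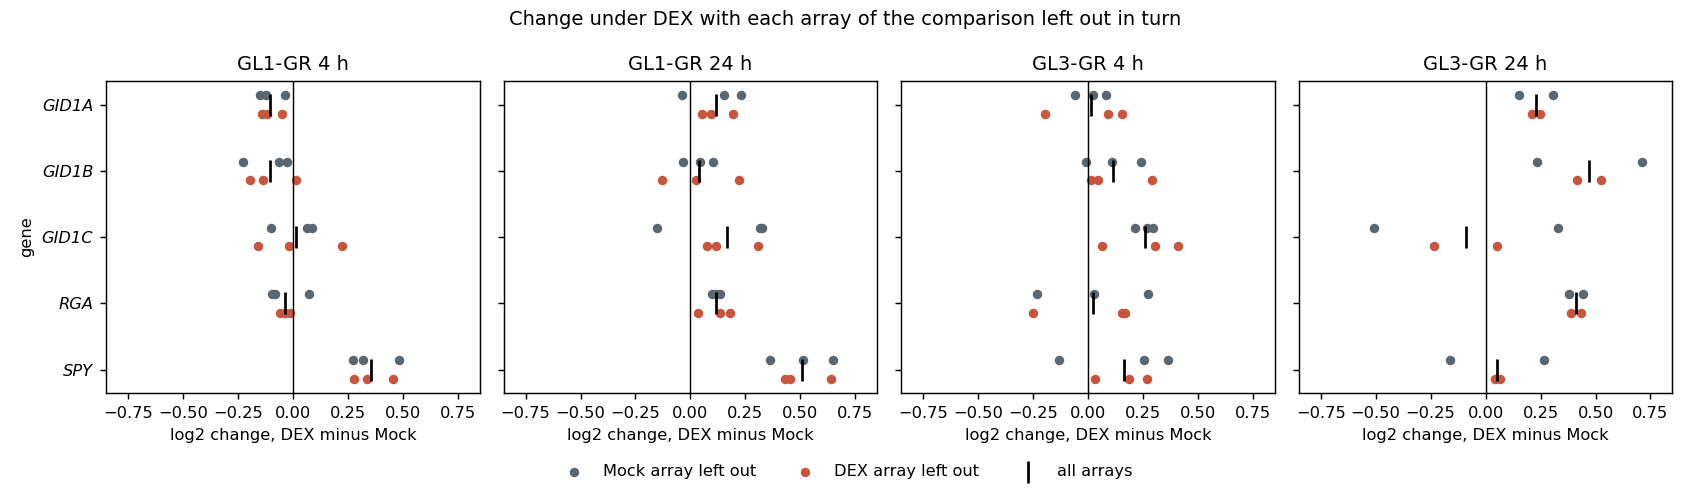
Difference between DEX and Mock (log2) of each gene with 1 array of the comparison left out, for Mock arrays (grey) and DEX arrays (red), beside the value from all arrays (black line). *SPY* in both GL1-GR comparisons and *RGA* in GL3-GR at 24 h (0.38 to 0.44) stay above 0, while *GID1C* in GL3-GR at 24 h runs from -0.51 to 0.33. For *RGA* the sign could not change there, as its DEX and Mock arrays did not overlap.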

How the data were processed

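Per the labels, NuGEN's Ovation kit was used to amplify total RNA and label it with biotin for 22 ATH1 arrays. The authors deposited 1 log2 value for each probe set, computed by GCRMA through the R package affylmGUI. No version of GCRMA is in the submitters' processing notes, and the number of normalization runs and the genome build are not given in the sources used here, so no coordinates are printed. Undetected probe sets stay at a floor after GCRMA and cannot be ranked there. The share of probe sets less than 0.5 above the lowest value was 30.6% to 41.3% per array. The number of arrays limits the precision. The lowest value differed between the 4 sets, and whether each set was normalized by itself is not known. No 2 arrays held the same values (0 of 231 pairs).

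Groups came from the sample labels. Controls (64 probe sets) were excluded, and probe sets above the 40th percentile of an array in at least 2 arrays were tested (16349). The platform table of GEO, possibly out of date, and 49 names added from the study's list gave 13562 probe sets with 1 gene name, and 503 had several. With limma 3.58.1 in R 4.3.3, a model of 8 group means was fitted over the 22 arrays (lmFit, eBayes). Two-sided p-values were adjusted over all probe sets tested, separately for each comparison (Benjamini-Hochberg), with a threshold of 0.05. The scripts were tested on simulated data. The alternatives were quantile normalization, median centring, each comparison alone, leaving out all 6 GL3-GR arrays of 4 h together, no filter, a filter at the 50th percentile, array weights, eBayes with trend and robust settings, the methods' t-test, a replicate block and leaving out each array. The mean of the 4 responses and a crossed block were added after seeing the data. The genes, the pathway and marker lists and the tests were chosen with earlier results of these data known. Genes named were all 5, of the pathway list any gene called and in each comparison the 3 tested with the smallest p (2 were tested), and for each gene the 3 named probe sets with the highest correlation.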

Additional observations from a re-analysis of the deposited data

How the results depend on the processing

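Of 310 alternative values for the 20 differences between DEX and Mock, 288 kept their direction and side of the threshold, 22 changed sign, and 0 passed an adjusted p under 0.05. The smallest adjusted p was 0.152, for *SPY* in GL1-GR at 24 h with array weights, where the difference was 0.68. That difference was lowest after quantile normalization, at 0.36. With array weights the sign changed for *RGA* in GL1-GR at 4 h (0.0281), *GID1C* in GL1-GR at 24 h (-0.0453), *GID1A* in GL3-GR at 4 h (-0.0528) and *RGA* in GL3-GR at 4 h (-0.42). The same fit called 1 of the 5 genes (*RGA*, with 0.83 and an adjusted p = 0.0471 from limma, among 909 probe sets called) for the difference between the responses of 24 h and 4 h in GL3-GR, against 0 before, and the cause was not tested. With 1 array left out, the sign changed in 12 comparisons. The ranges in GL1-GR at 4 h were -0.23 to 0.0131 for *GID1B*, -0.16 to 0.22 for *GID1C* and -0.10 to 0.0720 for *RGA*. At 24 h they were -0.0392 to 0.23 for *GID1A*, -0.13 to 0.22 for *GID1B* and -0.15 to 0.33 for *GID1C*. In GL3-GR at 4 h they were -0.20 to 0.15 for *GID1A*, -0.00768 to 0.29 for *GID1B*, -0.25 to 0.27 for *RGA* and -0.13 to 0.37 for *SPY*, and at 24 h -0.51 to 0.33 for *GID1C* and -0.16 to 0.27 for *SPY*.

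The share of all probe sets called was sensitive as well. In GL3-GR at 4 h, 146 were called, but 496 after quantile normalization, 1742 with array weights, 54 with a replicate block and 0 with the 6 arrays alone. With 1 array left out it ran from 65 to 1755, the highest counts being 1646 without Mock sample 1 and 1755 without DEX sample 1 of that set. In GL1-GR at 4 h the count went from 4 to 23 without the GL3-GR arrays of 4 h and to 221 with array weights, and in GL3-GR at 24 h from 0 to 7 and 36. At p under 0.01, the methods' t-test listed 0 of the 5 genes in GL1-GR and in GL3-GR at 4 h, and 1 (*RGA*) in GL3-GR at 24 h, as for 0.679% of the probe sets there, and none after adjustment.

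Same-numbered Mock and DEX arrays had correlated deviations of 0.018 to 0.104 (GL1-GR, 4 h), 0.058 to 0.353 (GL1-GR, 24 h), 0.067 to 0.281 (GL3-GR, 4 h) and -0.138 (GL3-GR, 24 h). Arrays with unlike numbers had -0.116 to 0.069, -0.386 to 0.384, -0.347 to 0.258 and 0.138 in that order. With 2 arrays per group the last values can differ only in sign. The labels do not say that the numbers pair the arrays, and these values do not settle it. The main fit took no pairs, and a replicate block was an alternative. In each set of 3 pairs, 4, 3 and 5 of 6 arrays correlated best with their own number. With the replicate block 0 of the 5 genes were called in any comparison, and a crossed block called 0 probe sets in GL3-GR at 24 h.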
